A study of Mus musculus with 4 samples.

Results

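The genes described here encode the proteasome, the protease of the cytosol and nucleus, together with the factors that assemble it. Members were chosen by gene name alone, as the rows of the count table named Psma1 to Psma8, Psmb1 to Psmb7, Psmc1 to Psmc6, Psmd with any number, Psme1 to Psme4, Psmf1, Psmg1 to Psmg4 or Pomp. That gave 45 genes of 24421 rows, of which 44 of the 12656 genes with enough counts were tested. RNA was measured in lymphatic endothelial cells of mouse lung, sorted at postnatal day 0 for CD31 and GFP and against CD45. Animals of the Jun-cKO group had the genotype Prox1-CreER;Junf/f;Rosa26-mTmG, with both alleles of Jun floxed, and those of the Jun-Ctrl group Prox1-CreER;Junf/+;Rosa26-mTmG, with 1 floxed and 1 wild-type allele. Both groups therefore carried at least 1 floxed Jun allele, a Cre recombinase driven by Prox1 that acts only with tamoxifen, and a reporter that turns green where Cre has acted. Each library came from pooled cells of several mice, and there were 2 libraries a group (n = 2 in every value below), replicate 2 being the one with the word replicate in its title. Whether these are separate sorts or separate amplifications is not given in the labels, so the p-values reflect no more than the spread of these libraries, and that may be technical.

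The proteasome degrades proteins that carry chains of ubiquitin. Its barrel, the 20S core, is a stack of rings in which alpha subunits form the gates and beta subunits line the chamber, and only Psmb5, Psmb6 and Psmb7 carry the constitutive proteolytic sites. The 19S particle caps the barrel. Its base holds the ATPases that unfold a substrate, and its lid holds the deubiquitinase that removes the ubiquitin chain. Chaperones that are not part of the finished particle help to build the core and the base, and other caps, the Psme proteins, open the gate without ubiquitin. In mammals the transcription factors Nrf1 (gene Nfe2l1) and Nrf2 (gene Nfe2l2) act on proteasome genes through antioxidant response elements in their promoters, and Jun is a subunit of AP-1, which binds a related motif.

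Promoter sequences are shown for the members with matches to both motifs, as searched below, and for Psmb6, a called proteolytic subunit that matches the first. RefSeq windows (build GRCm38.p6) from 250 bases before to 50 bases after the transcription start were at hand for 37 of the 45 members, in 40 windows. The core of the antioxidant response element was searched as TGACNNNGC and the AP-1 motif as TGANTCA, on both strands. TGANTCA allows any middle base and is looser than the usual AP-1 motif, whose middle base is C or G. In the lines below every match to either search is in capitals.
Psmb6, chr11:70525107-70525406, plus strand: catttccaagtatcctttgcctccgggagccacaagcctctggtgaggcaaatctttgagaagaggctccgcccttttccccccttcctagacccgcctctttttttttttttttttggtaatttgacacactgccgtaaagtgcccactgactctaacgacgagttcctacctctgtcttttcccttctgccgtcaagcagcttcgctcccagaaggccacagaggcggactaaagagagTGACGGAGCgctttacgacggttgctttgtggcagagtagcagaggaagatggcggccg
Psmb5, chr14:54617946-54618245, minus strand: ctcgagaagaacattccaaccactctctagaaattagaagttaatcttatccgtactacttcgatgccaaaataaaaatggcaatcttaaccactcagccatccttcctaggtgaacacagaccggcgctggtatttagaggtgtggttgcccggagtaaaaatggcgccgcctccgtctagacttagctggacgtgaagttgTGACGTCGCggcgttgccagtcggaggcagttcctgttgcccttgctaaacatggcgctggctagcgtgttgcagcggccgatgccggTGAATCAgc
Psmd9, chr5:123227940-123228239, plus strand: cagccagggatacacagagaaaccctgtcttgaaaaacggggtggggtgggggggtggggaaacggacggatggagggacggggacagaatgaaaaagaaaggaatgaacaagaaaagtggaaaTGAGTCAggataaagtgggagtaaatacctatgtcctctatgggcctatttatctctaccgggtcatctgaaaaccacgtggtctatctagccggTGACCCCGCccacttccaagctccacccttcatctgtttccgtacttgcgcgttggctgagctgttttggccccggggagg
In Psmb6 the antioxidant core begins 9 bases before the start, in Psmb5 47 bases before it and in Psmd9 31 bases before it. The match to TGANTCA begins 41 bases after the start in Psmb5, with A in the middle, and 126 bases before it in Psmd9, with G. Of the 40 member windows 6 (15%) held the antioxidant core, those of Psmb5, Psmb6, Psmc6, Psmd9, Psmd12 and Psme4, against 12.4% of all 32851 windows. TGANTCA stood in 2 (5%), against 7.81% of all windows and 5.11% of the windows of tested genes. The members' shares thus lay close to those of all promoters for both motifs as searched. Other motifs searched were CCAAT, in 12 member windows (30.0%, against 37.4% of all), GGGCGG, in 24 (60.0%, against 35.7% of all and 62.3% of the windows of tested genes), and TGACGTCA, in 0 (against 1.79% of all). These motifs can overlap each other. A match of letters is a description and not a bound site.

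Libraries held 15558476 and 6911821 counts in the Jun-cKO group and 16037416 and 6483514 counts in the Jun-Ctrl group. Within a group the libraries varied beyond counting error, and the median gene had a chi-square of 1.59 in the Jun-cKO group and 1.27 in the Jun-Ctrl group, against 0.455 from sampling alone. The targeted gene did not fall: Jun stood at 524 and 475 CPM (counts scaled to a common library size with TMM factors) in the Jun-cKO libraries, against 472 and 433 CPM in the Jun-Ctrl libraries (log2 fold change 0.14, SE 0.12, adjusted p = 0.354 in edgeR). The Jun-cKO libraries are therefore called Jun-cKO-labelled, and any direction given here depends on the label alone. Defining markers of lymphatic endothelium had counts except Ccl21a, which had 0 counts in every library. Near-identical copies, which can keep reads from being counted, were not sought for marker genes. For markers, 0 counts therefore need not mean absent RNA. The summed level of the 9 lymphatic markers was 18438 and 19031 CPM in Jun-cKO-labelled libraries and 14107 and 12920 CPM in the Jun-Ctrl libraries. Of 8 tested, 3 were higher and 1 lower. Lyve1 held the largest part, at 8641 and 10260 CPM, against 6402 and 5971 CPM in Jun-Ctrl, and was higher with Reln and Mmrn1. Flt4 was lower, at 1201 and 897 CPM, against 1677 and 1499 CPM in Jun-Ctrl. Prox1, at 34.2 and 31.9 CPM, against 39.3 and 43.6 CPM in Jun-Ctrl, lay lower without overlap and without a call. Markers of other cells differed as well. The 12 lung epithelial markers summed to 146 and 147 CPM in Jun-cKO-labelled libraries and to 1560.3 and 1621 CPM in Jun-Ctrl, with 11 of 12 lower. The 11 immune markers summed to 224 and 203 CPM, against 463 and 452 CPM in Jun-Ctrl, with 6 of 7 tested lower, Gzma higher (328 and 152 counts, against 0 and 0 counts in Jun-Ctrl) and Cd3e at 0 in every library. The 9 mesenchymal markers summed to 104 and 111 CPM, against 328 and 332 CPM in Jun-Ctrl, with 6 of 9 lower. Blood endothelial markers summed to 773 and 846 CPM, against 871 and 900.2 CPM in Jun-Ctrl. Of 7 tested, Gpihbp1 and Vwf were higher, Plvap and Car4 lower, and 3 did not pass. Mesothelial and cardiac markers summed to 2.21 to 4.43 CPM in Jun-cKO-labelled libraries and 7.96 to 35.6 CPM in Jun-Ctrl. Of the erythroid markers Hba-a1, Hba-a2 and Hbb-bs were at 0 in every library. Alas2 had 12 and 2 counts in Jun-cKO-labelled libraries, against 11 and 6 counts in Jun-Ctrl. Proteasome genes are used by all of these cells, and the part of the cell mixture in the results below was not tested. In such pooled RNA, fewer cells of a type and less RNA per cell cannot be told apart.

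Most proteasome genes differed little between the groups, and those that differed were in most cases higher with the Jun-cKO label. Of 44 tested members, 12 rose and 3 fell at an adjusted p under 0.05, and 29 did not pass. The members that rose were Psma4, Psmb2, Psmb4, Psmb6, Psmb7, Psmc4, Psmc5, Psmd3, Psmd10, Psme1, Psmg1 and Pomp, and those that fell were Psma7, Psmd9 and Psmg2. Over all tested genes, 19% were called higher and 22.5% lower, against 27.3% and 6.82% of the members. All tested members had a mean above 10 CPM, and among all 8424 tested genes at that level 23.6% were called higher and 18.6% lower. The share of members called higher thus stood near that of genes at a similar level, and the share called lower stood below it, at 3 genes. Changes were small, from 1.31-fold lower for Psmd9 to 1.53-fold higher for Psmg1. The median log2 fold change was 0.15 over the members, 0.01 over all tested genes and 0.07 over those above 10 CPM. Both Jun-cKO-labelled libraries lay above both Jun-Ctrl libraries for 21 members and below them for 8, while the groups overlapped for 15. Over all tested genes 35.4% lay above and 35.9% below, and at 10 CPM or more 41.6% and 30.7%. Summed over the 45 members the level was 7640.0 and 8030.5 CPM in Jun-cKO-labelled libraries and 6679 and 7138 CPM in the Jun-Ctrl libraries.

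These counts depended on single libraries and on scaling. Without Jun-Ctrl replicate 1, the deeper of its group, 2 members were higher and 1 lower, and without Jun-Ctrl replicate 2 the numbers were 10 and 0. Scaled by library totals, 9 were higher and 4 lower. Replicate 2 of a group tended to show more proteasome RNA than replicate 1, with a median log2 ratio over the members of 0.08 in Jun-cKO-labelled libraries (31 of 44 above 0) and of 0.10 in Jun-Ctrl (29 of 44), against -0.02 and -0.0002 over all tested genes. Set against each other 1 by 1, a Jun-cKO-labelled and a Jun-Ctrl library differed by a median log2 ratio of 0.01 to 0.23 over the members.

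**Figure D1:**
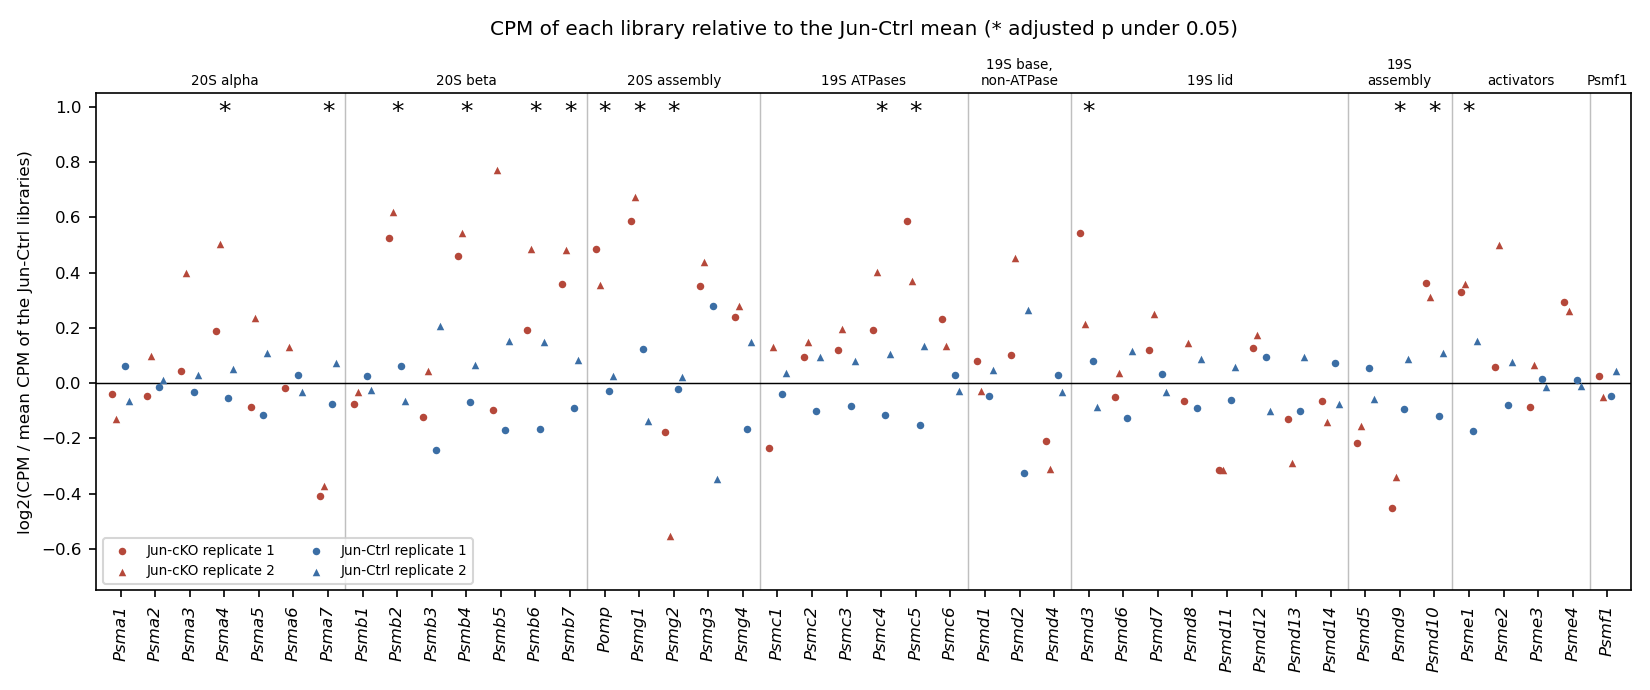
CPM of each tested proteasome gene in each library (Jun-cKO-labelled in red, Jun-Ctrl in blue; circles replicate 1, triangles replicate 2), as log2 of the ratio to the mean of both Jun-Ctrl libraries, so that 0 is the Jun-Ctrl mean. Stars mark the 15 genes with an adjusted p under 0.05; most red points of the beta ring and of Pomp and Psmg1 lie above 0, those of Psma7, Psmd9 and Psmg2 below it.

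Levels per length differed widely among the subunits of 1 particle. On the scale of CPM per kilobase of the deposited gene length, Psmb4 was the highest member, at 816 and 863 in Jun-cKO-labelled libraries, against 566 and 620.0 in Jun-Ctrl. Pomp came next at 724 and 661, against 507 and 527 in Jun-Ctrl. Psmb1, Psma2 and Psmb6 followed, with means over the 4 libraries of 344, 341 and 341 CPM per kilobase, which do not differ beyond the spread of the libraries. The lowest subunit of the core was Psmb5, at 37.1 and 67.8 CPM per kilobase in Jun-cKO-labelled libraries and 35.3 and 44.1 in Jun-Ctrl. Between Psmb4 and Psmb5 the mean level differed 15.5-fold, although the core holds both in equal number. Among the 17 subunits of the 19S particle the range was 10.5-fold, from Psmd11 with a mean of 19.5 CPM per kilobase to Psmc5 with 204. Psmb5 has a pseudogene copy of 98.9% identity over 796 bases, and Psmd11 has copies of 98.1% and 98.0% identity over 1494 and 1269 bases, and the part of these copies in both ranges was not tested. Psmd9 was the lowest tested member, at 10.5 and 11.3 in Jun-cKO-labelled libraries and 13.5 and 15.2 CPM per kilobase in Jun-Ctrl. RNA was amplified before sequencing, and whether reads cover whole transcripts evenly was not tested, so levels between genes are approximate. Psma8, an alpha subunit of the testis, was not tested, with 2 and 5 counts in Jun-cKO-labelled libraries and 9 and 4 counts in Jun-Ctrl.

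**Figure D2:**
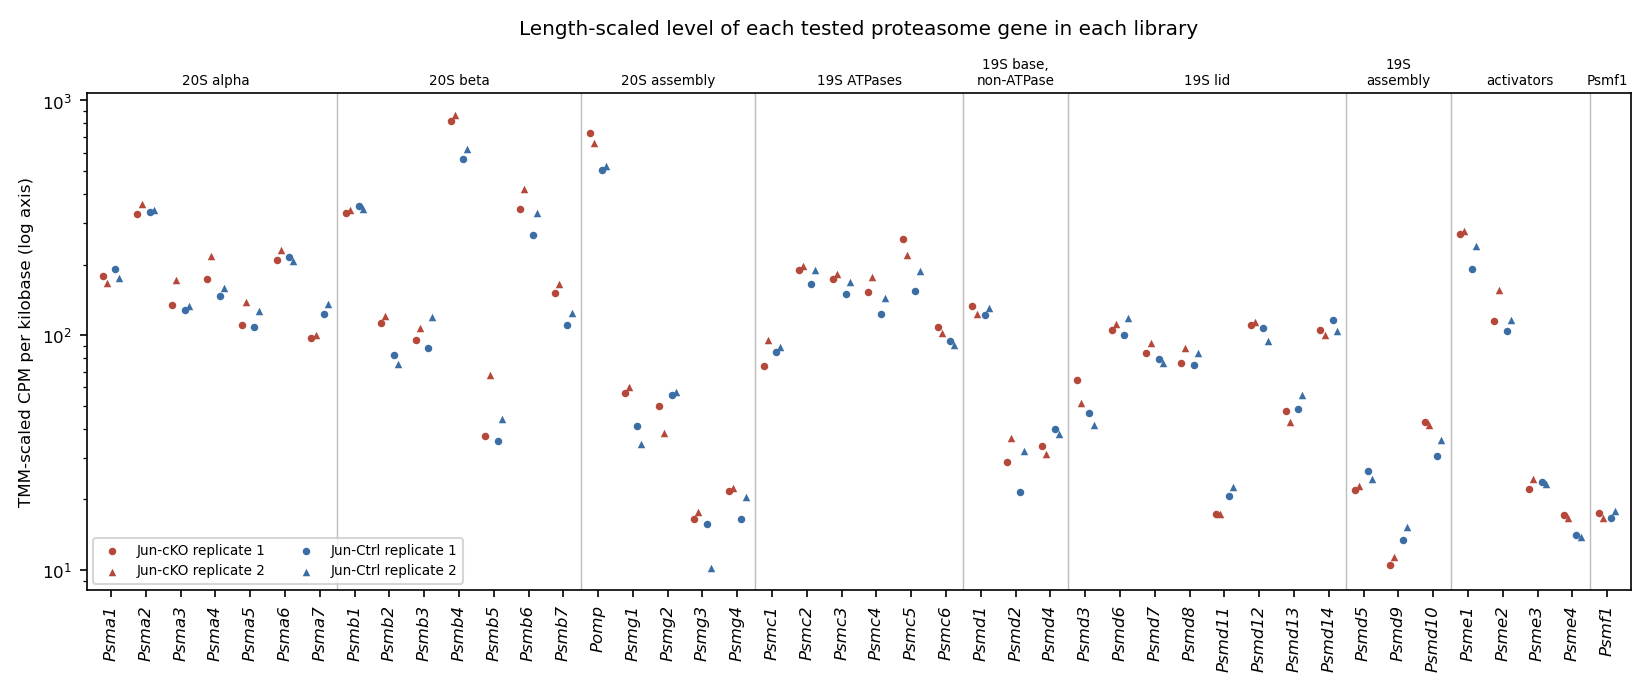
Level of each tested proteasome gene in CPM per kilobase of the deposited gene length, on a log axis, in each of the 4 libraries (Jun-cKO-labelled in red, Jun-Ctrl in blue; circles replicate 1, triangles replicate 2). Psmb4 and Pomp stand highest, Psmd9 lowest, and the differences between genes are far larger than those between libraries.

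The alpha ring, which forms the gate of the core, changed in single genes. Of its 7 tested genes 1 rose, 1 fell and 5 did not pass, with a median log2 fold change of 0.05. Each share was 14.3%, against 19% called higher and 22.5% called lower over all tested genes. Among tested genes at 10 CPM or more these were 23.6% and 18.6%. Psma4 had 191 and 237 CPM in Jun-cKO-labelled libraries, against 161 and 173 CPM in Jun-Ctrl. It rose 1.28-fold (0.35 on the log2 scale with an SE of 0.12, adjusted p = 0.0147). The groups did not overlap, but the Jun-cKO-labelled libraries stood further apart than the groups at their nearest. Psma7 had 155 and 159 CPM in Jun-cKO-labelled libraries, against 196 and 217 CPM in Jun-Ctrl, without overlap, and fell 1.31-fold (log2 fold change -0.39, adjusted p = 0.00543). The Psma7 transcript has the highest GC content of the alpha genes, 57.4%, and after a correction of each library for GC content its log2 fold change was -0.04 (adjusted p = 0.782). Psma4 also lost its call after that correction (log2 fold change 0.21, adjusted p = 0.116), and with the replicate block as well (adjusted p = 0.0548). It lost the call too without Jun-cKO-labelled replicate 2 or either Jun-Ctrl library (log2 fold changes 0.20, 0.29 and 0.38). The Psma7 call ended with the replicate block and GC correction together (adjusted p = 0.741), and without Jun-Ctrl replicate 2 as well (log2 fold change -0.34). Psma4 has a near copy among processed pseudogenes, Gm6542, so its reads are uncertain. Psma1, Psma2, Psma3, Psma5 and Psma6 had log2 fold changes of -0.08, 0.03, 0.23, 0.08 and 0.05, none with a call, and Psma3 passed with replicate 1 of Jun-cKO left out (0.40, adjusted p = 0.00906). Psma3 and Psma5 have near copies too.

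The beta ring, which holds the proteolytic sites, had the most calls of any role. Of 7 genes 4 rose, none fell and 3 did not pass, with a median log2 fold change of 0.38. The share called higher was 57.1%, against 19% of all tested genes and 23.6% of those at 10 CPM or more. Psmb2, a structural subunit on chromosome 4 (126677630 to 126709714, GRCm38, plus strand), had 95.7 and 102 CPM in Jun-cKO-labelled libraries, against 69.5 and 63.6 CPM in Jun-Ctrl. The lowest Jun-cKO-labelled library exceeded the highest Jun-Ctrl library by more than either group's own spread, and the gene rose 1.48-fold (95% interval 1.25 to 1.75, adjusted p = 0.000171). Psmb4, the last subunit to join the ring, which helps the unfinished cores to pair, had 775 and 819 CPM in Jun-cKO-labelled libraries, against 537 and 588 CPM in Jun-Ctrl. It rose 1.42-fold (95% interval 1.20 to 1.68, adjusted p = 0.0008), and the groups stood clear of each other.

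Among the proteolytic subunits of the beta ring, Psmb7, the trypsin-like one, had 146 and 159 CPM in Jun-cKO-labelled libraries, against 107 and 121 CPM in Jun-Ctrl. It rose 1.34-fold (adjusted p = 0.00298), but shares 405 exonic bases with Nek6 on the opposite strand, which the counting may not separate. Psmb6, the caspase-like one, whose promoter is printed above, had 356 and 436 CPM in Jun-cKO-labelled libraries, against 278 and 345 CPM in Jun-Ctrl. The nearest libraries of both groups almost touched, and the rise was 1.27-fold (adjusted p = 0.0209). Psmb5, the chymotrypsin-like one, had 32.3 and 59.1 CPM in Jun-cKO-labelled libraries, against 30.7 and 38.4 CPM in Jun-Ctrl. Here 1 library lay far above the other 3, the groups overlapped, and the log2 fold change of 0.38 (SE 0.17) did not pass (adjusted p = 0.0636). Without that library, Jun-cKO-labelled replicate 2, the value was -0.07, and with replicate 1 of Jun-cKO left out 0.79 (adjusted p = 1.07e-05). Psmb5 and Psmb3 have processed pseudogenes of near-identical sequence. Psmb1 and Psmb3 had log2 fold changes of -0.05 and -0.03, without a call. Without Jun-Ctrl replicate 1 the calls of Psmb4, Psmb6 and Psmb7 ended (adjusted p = 0.0639, 0.44 and 0.134), and that of Psmb6 also ended without Jun-cKO-labelled replicate 2 (0.216), with library totals (0.0545) and in DESeq2 (0.0532).

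Assembly factors of the core went both ways, and partners of 1 chaperone pair moved apart. Psmg1 and Psmg2 form a dimer that starts the alpha ring, Psmg3 and Psmg4 form a second dimer that joins it, and Pomp brings in the beta subunits. Of these 5 genes 2 rose and 1 fell (40% and 20%, against 19% and 22.5% of all tested genes). Among tested genes at 10 CPM or more, 23.6% were called higher and 18.6% lower. Psmg1 (chromosome 16, 95979933 to 95990960, GRCm38, minus strand) had 55.8 and 59.2 CPM in Jun-cKO-labelled libraries, against 40.5 and 33.8 CPM in Jun-Ctrl. It rose 1.53-fold (95% interval 1.27 to 1.84, adjusted p = 0.000276), the highest fold change of all members, with the groups well apart. Its partner Psmg2 had 52.9 and 40.7 CPM in Jun-cKO-labelled libraries, against 58.8 and 60.6 CPM in Jun-Ctrl. It fell 1.26-fold (adjusted p = 0.0411), with 1 of the Jun-cKO-labelled libraries far below the other.

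Pomp, the second most abundant member per length, had 531 and 485 CPM in Jun-cKO-labelled libraries, against 372 and 387 CPM in Jun-Ctrl. It rose 1.34-fold (0.42 on the log2 scale with an SE of 0.12, adjusted p = 0.00343), and no library came near the other group. Psmg3 had 13.9 and 14.8 CPM in Jun-cKO-labelled libraries, against 13.2 and 8.57 CPM in Jun-Ctrl, and Psmg4 had 12.1 and 12.4 CPM, against 9.10 and 11.3 CPM in Jun-Ctrl. Neither passed (adjusted p = 0.182 and 0.248), and both passed after GC correction, with log2 fold changes of 0.59 and 0.50 (adjusted p = 0.017 and 0.0336). The Psmg2 call ended in DESeq2 (adjusted p = 0.157), without the filter on low counts (0.0503), and without Jun-cKO-labelled replicate 2 (0.401), Jun-Ctrl replicate 1 (0.148) or Jun-Ctrl replicate 2 (0.142), and with replicate 1 of Jun-cKO left out its log2 fold change was -0.55. The Pomp call ended without Jun-Ctrl replicate 1 (0.0854).

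In the base of the 19S particle, 2 of 6 ATPase genes rose and none fell, with a median log2 fold change of 0.17. The share called higher was 33.3%, against 19% of all tested genes and 23.6% of those at 10 CPM or more. Psmc5 had 327 and 281 CPM in Jun-cKO-labelled libraries, against 196 and 239 CPM in Jun-Ctrl, and rose 1.40-fold (95% interval 1.19 to 1.66, adjusted p = 0.000968). Psmc4 had 219 and 253 CPM in Jun-cKO-labelled libraries, against 177 and 206 CPM in Jun-Ctrl, and rose 1.23-fold (adjusted p = 0.0348). Both genes showed no overlap, but the libraries of each group stood further apart than the groups at their nearest. The gap was narrow for Psmc4. The other ATPases, Psmc1, Psmc2, Psmc3 and Psmc6, had log2 fold changes of -0.05, 0.12, 0.16 and 0.18 without a call, and Psmc3 passed after GC correction (log2 fold change 0.38, adjusted p = 0.00414). Exons of Psmc3 overlap those of Slc39a13 on the opposite strand, and Psmc1 has a processed pseudogene. Without Jun-Ctrl replicate 1 the Psmc5 call ended (adjusted p = 0.131), and the Psmc4 call ended in 7 of 14 alternatives, with upper-quartile scaling (0.0672), library totals (0.0911), the filter of 50 counts (0.0675), DESeq2 (0.0758), and without Jun-cKO-labelled replicate 2 (0.208), Jun-Ctrl replicate 1 (0.415) or Jun-Ctrl replicate 2 (0.0623).

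The base also holds Psmd1 and Psmd2, large scaffolds, and Psmd4, a receptor for ubiquitin chains, and none of these 3 was called. Psmd1 had 434 and 402 CPM in Jun-cKO-labelled libraries, against 397 and 424 CPM in Jun-Ctrl, and its log2 fold change of 0.03 had a 95% interval of the fold from 0.866 to 1.20. Psmd2 had 87.7 and 112 CPM, against 65.3 and 98.2 CPM in Jun-Ctrl, so libraries within a group differed more than the groups (log2 fold change 0.30, adjusted p = 0.0754). Psmd2 passed in 6 of 14 alternatives, among them those that left out replicate 1 of Jun-cKO (log2 fold change 0.48) or replicate 2 of Jun-Ctrl (0.58), and it was at 0.0019 without Jun-Ctrl replicate 1. Psmd4 had 45.2 and 42.1 CPM, against 53.4 and 51.1 CPM in Jun-Ctrl, lower without overlap but without a call (log2 fold change -0.26, adjusted p = 0.112).

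In the lid of the 19S particle 1 of 8 genes was higher and none lower, with a median log2 fold change of 0.02. The share called higher was 12.5%, against 19% of all tested genes and 23.6% of those at 10 CPM or more. Psmd3, a structural subunit, had 138 and 110.0 CPM in Jun-cKO-labelled libraries, against 100.2 and 89.3 CPM in Jun-Ctrl. It rose 1.31-fold (0.39 on the log2 scale with an SE of 0.12, adjusted p = 0.00817), with the Jun-cKO-labelled libraries further apart than the groups at their nearest. Its transcript has a GC content of 58.3%, the highest of all members, and after GC correction its log2 fold change was 0.77. The call ended with replicate 1 of Jun-cKO left out (0.21, adjusted p = 0.23), without Jun-Ctrl replicate 1 (0.47, adjusted p = 0.0559) and without Jun-Ctrl replicate 2 (0.29, adjusted p = 0.18). Psmd14, the deubiquitinase of the lid, had 162 and 154 CPM in Jun-cKO-labelled libraries, against 178 and 161 CPM in Jun-Ctrl, overlapping (log2 fold change -0.10, adjusted p = 0.499). After GC correction it was at -0.26 and passed (adjusted p = 0.0394). Psmd6 was closest to equal levels, with a log2 fold change of -0.004 and a 95% interval of the fold from 0.847 to 1.17. Psmd11, the lowest lid gene per length, had 30.2 and 30.3 CPM in Jun-cKO-labelled libraries, against 36.0 and 39.2 CPM in Jun-Ctrl (log2 fold change -0.31, adjusted p = 0.0804), lower without overlap and with a near copy, A730017L22Rik, in the table. Psmd7, the partner of Psmd14, Psmd8, Psmd12 and Psmd13 had log2 fold changes of 0.18, 0.04, 0.15 and -0.20, without a call.

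The chaperones that build the base, Psmd5, Psmd9 and Psmd10, did not move together. Psmd10, also known as gankyrin, had 62.3 and 60.1 CPM in Jun-cKO-labelled libraries, against 44.6 and 52.2 CPM in Jun-Ctrl, and rose 1.28-fold (adjusted p = 0.0256). Psmd9, whose promoter is printed above, had 27.2 and 29.4 CPM, against 34.9 and 39.5 CPM in Jun-Ctrl, and fell 1.31-fold (adjusted p = 0.0285). Psmd5 had 44.7 and 46.7 CPM, against 54.0 and 49.9 CPM in Jun-Ctrl, without a call (adjusted p = 0.241). In all 3 genes the groups stood apart, by a narrow gap in Psmd5. Reads of Psmd9 may include the lincRNA Gm26745, which shares 1849 exonic bases with it on the opposite strand. After GC correction the calls of Psmd10 and Psmd9 ended (log2 fold changes 0.18 and -0.30, adjusted p = 0.251 and 0.0728), as they did in DESeq2 (adjusted p = 0.102 and 0.129) and without Jun-cKO-labelled replicate 1 (0.0835 and 0.139) or Jun-Ctrl replicate 1 (0.345 and 0.0576). The Psmd10 call ended in 7 of 14 alternatives in all, among them also library totals (0.0645) and the filter of 50 counts (0.0505). That of Psmd9 ended in 5, also without Jun-Ctrl replicate 2.

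Of the 4 genes for alternative caps, 1 rose and none fell, with a median log2 fold change of 0.28. The share called higher was 25%, against 19% of all tested genes and 23.6% of those at 10 CPM or more. Psme1 and Psme2 encode the interleaved subunits of an activator that interferon-gamma induces, and lie near each other on chromosome 14 (55578123 to 55581529 and 55587441 to 55591113, GRCm38). Psme1 had 265 and 270.3 CPM in Jun-cKO-labelled libraries, against 187 and 234 CPM in Jun-Ctrl, and rose 1.27-fold (adjusted p = 0.0156). Psme2 had 113 and 153 CPM, against 102 and 114 CPM in Jun-Ctrl, and did not pass (log2 fold change 0.29, adjusted p = 0.0564). The groups did not overlap for Psme1, but its Jun-Ctrl libraries stood further apart than the groups at their nearest. They overlapped for Psme2, which has a near-identical protein-coding copy, Psme2b. The Psme1 call ended without Jun-Ctrl replicate 1 (log2 fold change 0.18, adjusted p = 0.401). Psme2 passed in 5 of 14 alternatives, with a log2 fold change of 0.39 after GC correction and of 0.51 with replicate 1 of Jun-cKO left out. Psme4, the large nuclear cap, had 110.2 and 108 CPM in Jun-cKO-labelled libraries, against 90.6 and 89.2 CPM in Jun-Ctrl. Its libraries hardly varied within a group, and its log2 fold change of 0.28 (SE 0.12) just missed the threshold (adjusted p = 0.0502). Psme3, the activator of the nucleus, and Psmf1, an inhibitor of the core in vitro, had log2 fold changes of -0.02 and -0.004, with 95% intervals of the fold from 0.830 to 1.18 and from 0.838 to 1.19.

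The inducible subunits that replace the proteolytic ones in the immunoproteasome are not among the 45 members and were set beside them. Of 3 tested genes 2 rose (66.7%, against 19% of all tested genes and 23.6% of those at 10 CPM or more). Psmb8, which replaces Psmb5, had 56.7 and 55.5 CPM in Jun-cKO-labelled libraries, against 30.3 and 36.9 CPM in Jun-Ctrl, and rose 1.69-fold (95% interval 1.40 to 2.05, adjusted p = 1.54e-05), a higher fold change than that of any of the 44 tested members. Psmb10, which replaces Psmb7, had 50.6 and 46.5 CPM, against 32.6 and 37.5 CPM in Jun-Ctrl, and rose 1.40-fold (adjusted p = 0.00366). Both genes showed a gap between the groups. Psmb9, which replaces Psmb6, was low, at 4.46 and 5.76 CPM in Jun-cKO-labelled libraries and 2.91 and 4.90 CPM in Jun-Ctrl, and did not pass (adjusted p = 0.228). Psmb11, the form of the thymus, had 2 and 0 counts in Jun-cKO-labelled libraries and 8 and 4 counts in Jun-Ctrl and was not tested. Leukocytes express these genes strongly. The summed immune markers were lower in Jun-cKO-labelled libraries and Gzma was higher, as given above, and their part in the result was not tested. Without Jun-Ctrl replicate 1 the Psmb10 call ended (adjusted p = 0.138), and after GC correction its log2 fold change was 0.78, against 0.49 as reported.

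Of 9 tested proteins that bind the proteasome 3 rose (33.3%) and none fell, against 19% and 22.5% of all tested genes and 23.6% and 18.6% of those at 10 CPM or more. Usp14, a deubiquitinase of the base, had 98.8 and 117 CPM in Jun-cKO-labelled libraries, against 76.8 and 66.7 CPM in Jun-Ctrl, and rose 1.49-fold (log2 fold change 0.57, adjusted p = 0.000173; 0.35 after GC correction). Uchl5, another deubiquitinase of the particle, rose 1.39-fold, and Ecpas, a scaffold between core and cap, listed under its older symbol AI314180, rose 1.62-fold (log2 fold change 0.70, and 0.43 with replicate 1 of Jun-cKO left out). Adrm1, the receptor that anchors Uchl5, had a log2 fold change of -0.27 (adjusted p = 0.11), and Sem1, a small lid protein listed as Shfm1, one of -0.08. Of the shuttle factors, which carry ubiquitinated proteins to the particle, Ubqln4 and Ubqln2 rose 1.44-fold and 1.39-fold, and Rad23b and Ubqln1 had log2 fold changes of 0.08 and 0.06 without a call. The Uchl5 call ended after GC correction (0.0621) and without Jun-Ctrl replicate 2 (0.0659), and that of Ubqln4 without Jun-Ctrl replicate 1 (0.0786). Of the genes for ubiquitin and its activating enzymes, Rps27a, which encodes ubiquitin fused to a ribosomal protein, and Uba1, the main activating enzyme, had log2 fold changes of 0.12 and -0.09, without a call.

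Among genes of the Nrf1 pathway, which raises proteasome genes when the protease is short, 3 of 12 tested were higher (25%) and 2 lower (16.7%), shares near the 19% and 22.5% of all tested genes. Nfe2l1 had 93.4 and 67.0 CPM in Jun-cKO-labelled libraries, against 102 and 99.4 CPM in Jun-Ctrl, and fell 1.25-fold (adjusted p = 0.0393). Nfe2l2 had 135 and 139 CPM, against 101 and 89.5 CPM in Jun-Ctrl, and rose 1.43-fold (95% interval 1.22 to 1.68, adjusted p = 0.00037). The Nfe2l2 libraries of a group lay close together. For Nfe2l1, Jun-cKO-labelled replicate 1 lay nearer to both Jun-Ctrl libraries than to Jun-cKO-labelled replicate 2. Ngly1, which removes the glycans of Nrf1, rose 1.40-fold, and Zfand2a, an arsenite-induced adaptor of the proteasome, rose 1.41-fold. Herpud1, of degradation at the endoplasmic reticulum, fell 1.37-fold. Vcp, the ATPase that extracts Nrf1 from the membrane, and its partner Nploc4 had log2 fold changes of -0.02 and 0.01, without a call. Ddi2, the protease that cleaves Nrf1, was not tested, with 0 counts in both Jun-cKO-labelled libraries and 7 and 2 counts in Jun-Ctrl. The Nfe2l1 call ended after GC correction (log2 fold change -0.14, adjusted p = 0.358), in DESeq2 (0.158) and without Jun-cKO-labelled replicate 2 (-0.10, adjusted p = 0.584), Jun-Ctrl replicate 1 (0.227) or Jun-Ctrl replicate 2 (0.0991), and the value was -0.59 with replicate 1 of Jun-cKO left out. The Ngly1 call ended after GC correction (0.061) and without the same 3 libraries (0.0569, 0.0503 and 0.0994, in that order).

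**Figure D3:**
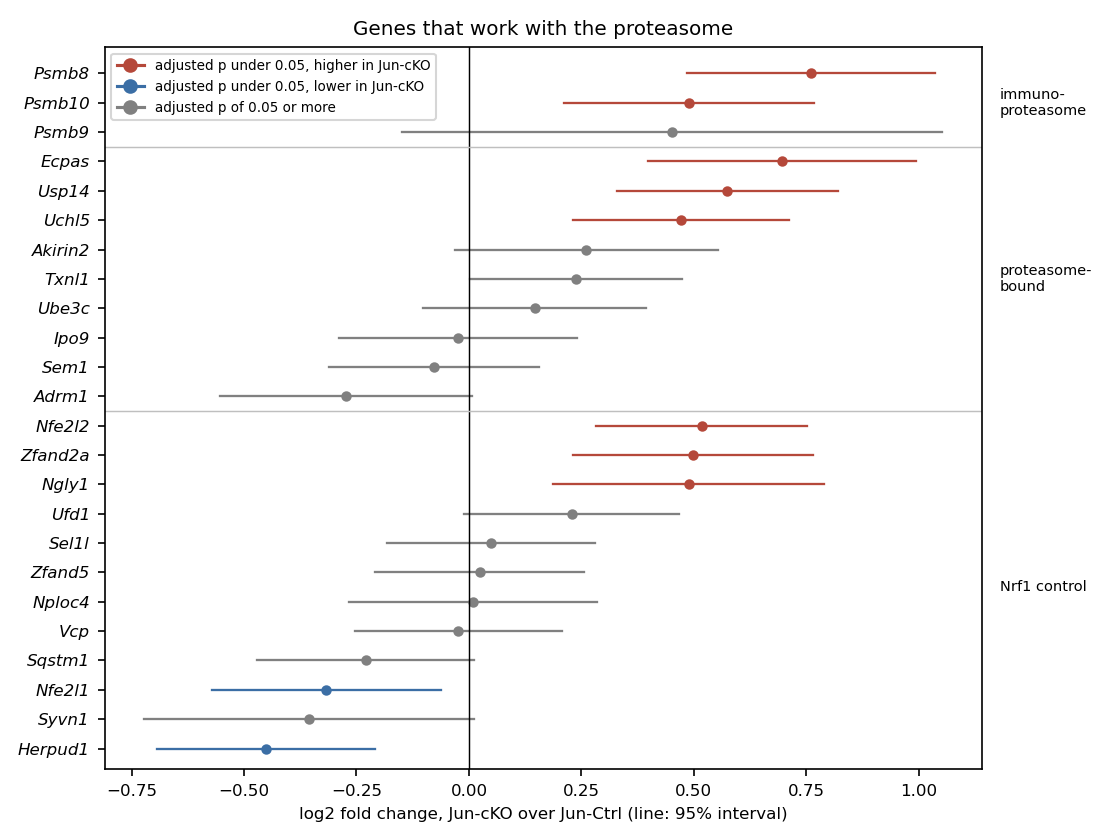
Log2 fold change, Jun-cKO-labelled over Jun-Ctrl, of 24 tested genes of the immunoproteasome, the proteasome-bound proteins and the Nrf1 pathway, with 95% intervals as lines, grouped by list. Genes with an adjusted p under 0.05 are red where higher and blue where lower; Psmb8 is the highest and Herpud1 the lowest.

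Over the 15 called members, the calls of Psmb2 and Psmg1 held under all 14 alternatives that were run. Those of Psmb4, Psmb7, Psmc5, Psme1 and Pomp each ended under 1, the removal of Jun-Ctrl replicate 1. The other 8 lost their call under 3 to 7 alternatives. Psmb2 ranged from 0.49 to 0.62 and Psmg1 from 0.48 to 0.75 on the log2 scale over the alternatives. None of the 15 changed direction in any of them.

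**Figure D4:**
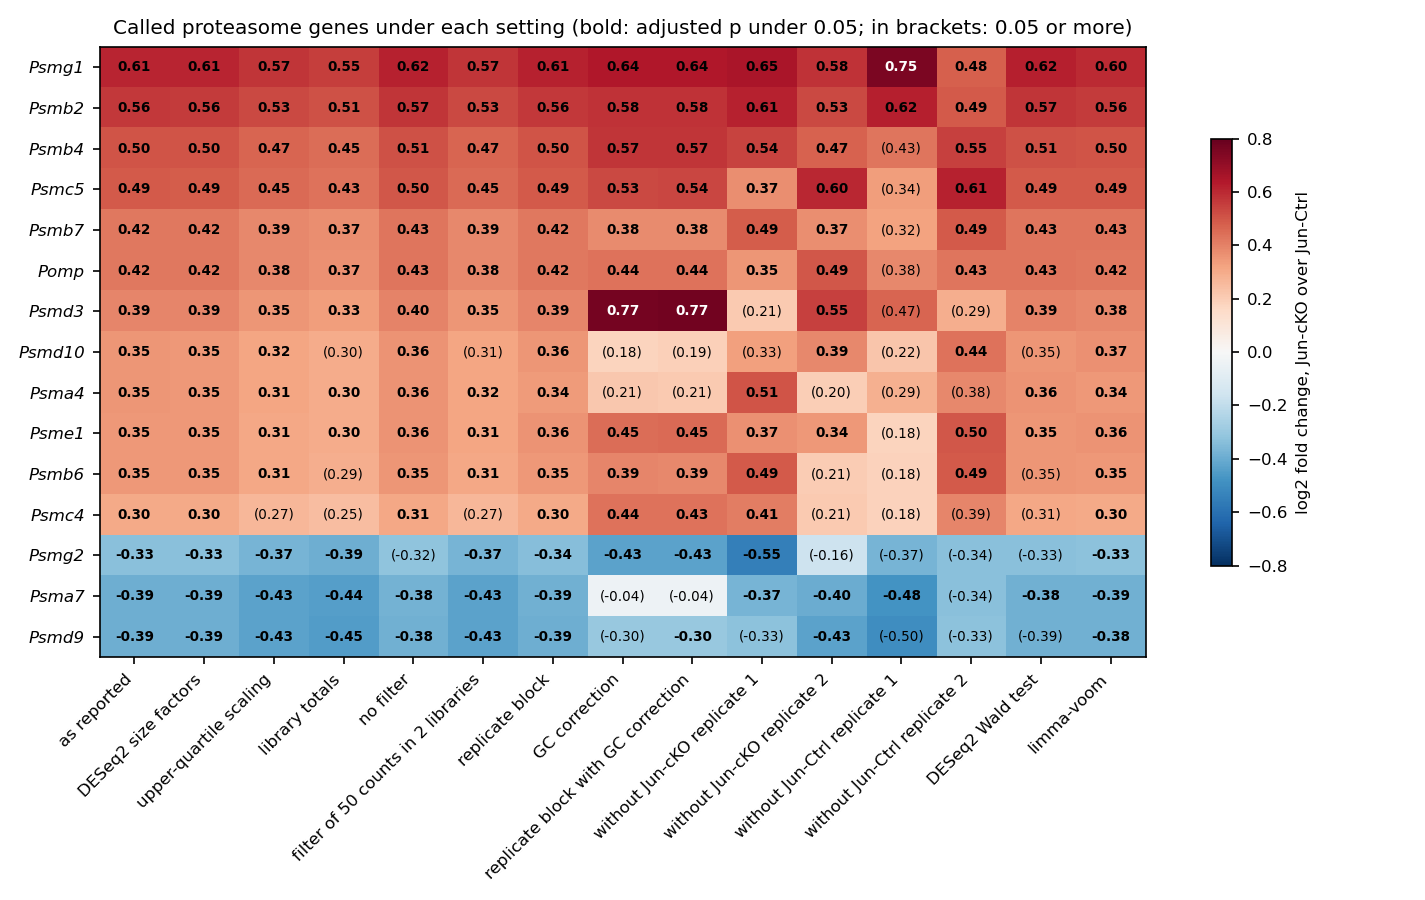
Log2 fold change, Jun-cKO-labelled over Jun-Ctrl, of the 15 called proteasome genes (rows, highest at the top) as reported and under each of 14 alternatives (columns). Bold numbers have an adjusted p under 0.05, numbers in brackets 0.05 or more; the rows of Psmg1 and Psmb2 are bold throughout, and the column without Jun-Ctrl replicate 1 has 3 bold numbers.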

How the data were processed

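The authors deposited 1 table of whole-number read counts, with a length for every gene. STAR 2.7.2a, featureCounts 1.6.4, edgeR 3.28.1 and mm10 are named without roles, per the submitters' processing notes. RNA was amplified (RiboAmp HS PLUS) before library construction with a kit that keeps no strand, per the labels' protocols. The sources used here give neither annotation nor strand setting.

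The main test was the quasi-likelihood test of edgeR 4.0.16 (R 4.3.3), Jun-cKO over Jun-Ctrl, after filterByExpr and TMM scaling, with Benjamini-Hochberg adjustment over 12656 genes. Standard errors are the log2 fold change over the root of F, and intervals rest on 2 libraries a group. Amplified reads are not independent molecules, so counts carry more than counting error. In CPM, 3 counts are worth 0.193 and 0.434 in Jun-cKO libraries and 0.187 and 0.463 in Jun-Ctrl. The test was tried on simulated counts for the 12656 genes of this comparison. It recovered 50 of 100 changes of 1.5-fold and 96 of 100 of 2-fold with 10 false calls. The simulation gave every gene the same spread, changed 200 genes and held no replicate or GC effect. In the data 5251 genes were called, so these numbers do not give the error rate here. Near copies were sought with minimap2 2.31 among GENCODE M21 transcripts (GRCm38), as matches of at least 79 bases at 95% identity, and overlaps in its exons. The GC correction is a loess curve (span 0.5) of each library on the GC content of the transcript nearest in length, known for 96.3% of tested genes. Alternatives also included DESeq2 1.42.0 and limma-voom (limma 3.58.1).

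Every member may be named. Values per library are given for called members and for most members with the highest or lowest level per length in a role. Psma2, Psmc1, Psmd6 and Psmf1 are such members and are given without them. Values per library are also given for others chosen after their values were seen. Of other lists the called genes with the smallest p are named, at most 3 a direction. Members and lists were chosen with earlier results of these data known. Some genes of these lists are not reported here.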

Additional observations from a re-analysis of the deposited data

How the results depend on the processing

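Of the 15 called members none changed direction under 14 alternatives, and of the 29 others 12 gained a call and 12 changed sign under at least 1. Over all genes 5251 were called, and 3385 in DESeq2 (1482 higher). Leaving out 1 library gave 2992 to 4794 calls, 1177 to 2214 higher and 1815 to 2656 lower, the fewest without Jun-Ctrl replicate 1, and the cause was not tested. Called members numbered 3 to 16 with 1 library left out, 2 to 14 higher and 0 to 2 lower, and their median log2 fold change ran from 0.071 to 0.18. In DESeq2 1 member was lower. Called genes of the related lists numbered 9 to 16 with 1 library left out, 7 to 11 higher and 2 to 5 lower, and in DESeq2 1 was lower.

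The main test did not pair libraries by replicate number. Only 2 pairs exist, and over 12656 genes the deviations of replicate 1 from their group means correlated at 0.07 between groups. Over the members replicate 2 stood above replicate 1 in both groups, by median log2 ratios of 0.08 and 0.10. Whether libraries of the same number form pairs is not given in the labels, and that correlation cannot decide it. With the replicate block 18 members were called, 15 higher and 3 lower. With the replicate block and GC correction together they were 16 higher and 6 lower, and with GC correction alone 15 and 2.

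Signs that turned belong to members without a call. Psma2 was at -0.011 with upper-quartile scaling, -0.029 with library totals, -0.010 with the filter of 50 counts and -0.14 with GC correction, with or without the replicate block. Psmd1 was at -0.0091, -0.027, -0.0091, -0.064 with GC correction and -0.062 with the block as well. Psma6 was at -0.0012 with library totals, -0.043 with GC correction and -0.045 with the block as well, and Psmd8 at -0.010 with library totals. With GC correction Psmb3 was at 0.13 and Psmc6 at -0.080, and with the block as well at 0.13 and -0.078. Psmd6 was at 0.0040 with no filter, 0.00052 with the replicate block, 0.00068 in DESeq2 and 0.0026 in limma-voom, and Psmf1 at 0.0039 with no filter and 0.0019 in limma-voom. With 1 library left out the ranges were -0.039 to 0.10 for Psma2, -0.070 to 0.24 for Psma5, -0.0097 to 0.13 for Psma6, -0.26 to 0.18 for Psmb3, -0.066 to 0.79 for Psmb5, -0.22 to 0.13 for Psmc1, -0.031 to 0.091 for Psmd1, -0.14 to 0.097 for Psmd6, -0.057 to 0.15 for Psmd8, -0.080 to 0.064 for Psme3 and -0.065 to 0.041 for Psmf1. The cause was not tested in these cases. By plain CPM Psmd1 ranks 3 among the members, against 16 per kilobase, since its transcript is long. Psma8, with 2 to 9 counts a library, was too low to test.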
